A study of Mus musculus with 6 samples.

Results

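DNA replication and cell cycle genes were examined in livers of 3 mice lacking RECS1 in hepatocytes (RECS1-HKO, called HKO) and 3 control mice with floxed RECS1 alleles (RECS1-flox). The arrays list RECS1 as Tmbim1, which encodes a protein of intracellular membranes. All mice were C57BL/6, began a high-fat diet (HFD) at 8 weeks of age, ate it for 8 weeks and were 16 weeks old at dissection. Each liver's total RNA was hybridised to an Affymetrix array, and the sources used here give neither the Cre driver nor the sex of the mice. The genes were a list of 45 symbols: 20 of the replication machinery, 7 of G1 and the entry into S phase, and 18 of G2 and mitosis. Of these, 44 had a named probe set among the 18029 genes measured, and Ccnb1 was not analysed here. Each gene was read from its brightest probe set, by the mean of all 6 arrays.

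Most hepatocytes of an adult liver are quiescent and enter the cycle after loss of tissue or injury. In G1, cyclin D with Cdk4 and then cyclin E with Cdk2 inactivate the retinoblastoma proteins, which frees E2F factors to switch on genes of DNA synthesis. The Mcm helicase is loaded on origins by Cdc6 and Cdt1, and later cyclin A and cyclin B with Cdk1 drive G2 and mitosis, whose genes are activated through FoxM1 and B-Myb with the MuvB complex. Hepatocytes can also replicate without dividing, which makes them polyploid. Whole liver RNA holds all cell types of the organ, so more cycling cells and more of a transcript per cell cannot be told apart here.

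None of the 44 genes rose or fell past an adjusted p of 0.05 (limma, Benjamini-Hochberg over all genes). The rule called 1.01% of all genes, 0.560% higher and 0.449% lower. The lowest adjusted p was 0.105, that of Mcm3. At an unadjusted p under 0.05, 11 of the 44 were higher in HKO liver and 0 were lower, where 6.03% of all genes were higher and 6.96% lower. These 11 were 6 replication genes (Mcm2, Mcm3, Mcm4, Cdt1, Rfc4 and Lig1) and 5 mitosis genes (Ccnb2, Cdk1, Cdc25c, Top2a and Birc5). In 7 genes all 3 HKO arrays lay above all 3 control arrays and in 1 gene below them, while 8.58% of all genes were separated upward and 10.1% downward. The count of 11 changed when 1 array was left out: it was 15 without HKO 1, 5 without HKO 2 and 7 without HKO 3. It was 9 without control 1, 6 without control 2 and 6 without control 3. The count lower was at most 2 in these fits. Genes called over all genes at the adjusted threshold fell as well, from 182 to between 78 and 161. How much of the change in the count came from having fewer arrays was not tested.

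The median log2 difference (HKO minus control) was 0.13 over the 20 replication genes, 0.07 over the 7 G1/S genes and 0.07 over the 17 mitosis genes, against a median of 0.00 over all genes. Differences of single genes ran between -0.39 and 0.62. Of the 44 genes, 28 had positive values (63.6%, against 48.8% of all genes). The 95% interval of the difference lay wholly between -0.5 and 0.5 for 24 genes and between -1 and 1 for 43, the exception being Top2a.

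**Figure D1:**
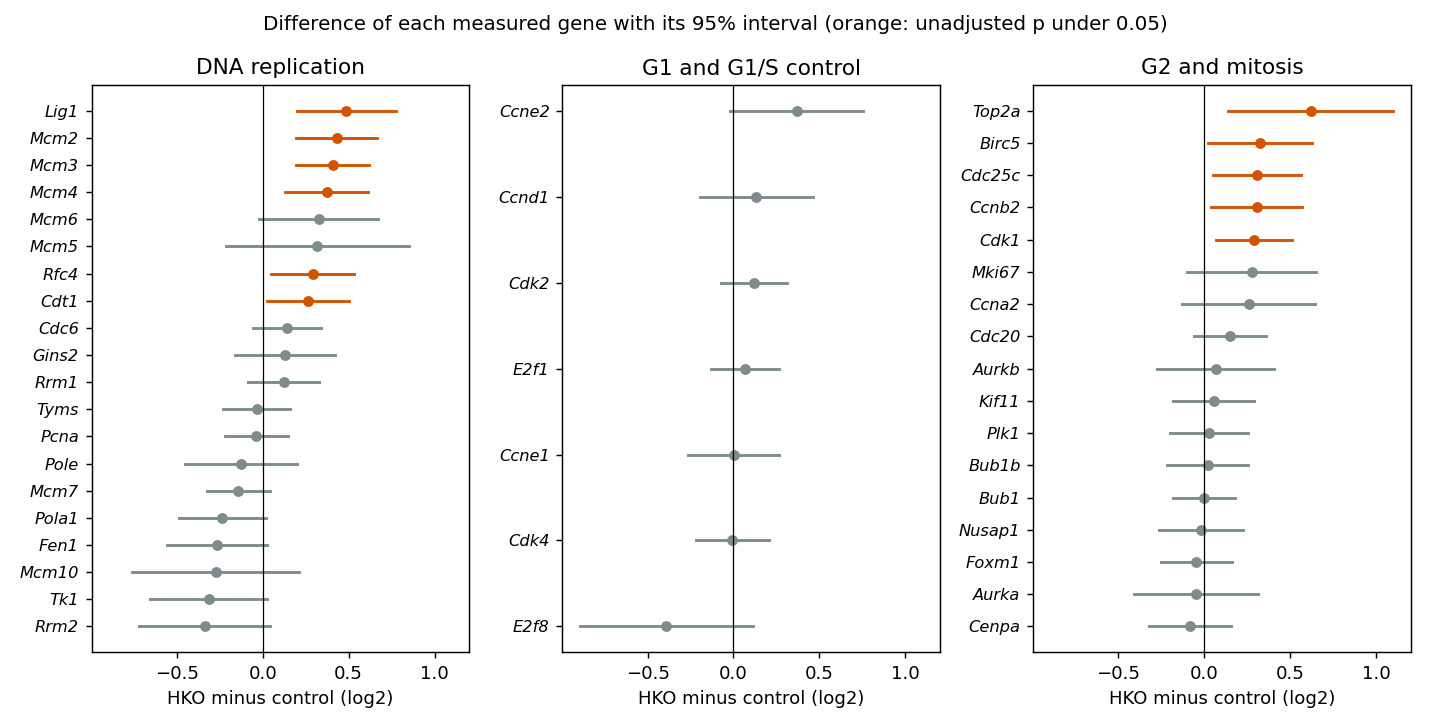
Log2 difference (HKO minus control) of each of the 44 measured genes with its 95% interval from limma (3 HKO and 3 control arrays), in 3 panels by role and sorted by value. Orange marks an unadjusted p under 0.05. Such genes occur only on the positive side, 6 in replication and 5 in mitosis, while the G1/S panel has 0.

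The promoters of these genes carry sequence words known from cell cycle control, and those of the 3 replication and 3 mitosis genes with the lowest p that had an entry are shown. The sequences are the 250 bases before the annotated start, 5′ to 3′ on the gene's strand (RefSeq, GRCm38.p6). Capitals mark, on either strand, the E2F cores TTGGCGC and TTCCCGC, the CHR (cell cycle genes homology region, TTTGAA or TTTAAA) and the CCAAT box (CCAAT, bound by NF-Y).
Mcm3, chr1:20820313-20820562, minus strand: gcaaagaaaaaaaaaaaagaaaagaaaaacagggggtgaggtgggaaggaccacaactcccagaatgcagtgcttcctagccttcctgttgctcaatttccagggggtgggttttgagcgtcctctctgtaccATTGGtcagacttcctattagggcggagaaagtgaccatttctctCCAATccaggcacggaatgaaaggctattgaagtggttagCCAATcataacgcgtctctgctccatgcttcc
Mcm2, chr6:88898781-88899030, minus strand: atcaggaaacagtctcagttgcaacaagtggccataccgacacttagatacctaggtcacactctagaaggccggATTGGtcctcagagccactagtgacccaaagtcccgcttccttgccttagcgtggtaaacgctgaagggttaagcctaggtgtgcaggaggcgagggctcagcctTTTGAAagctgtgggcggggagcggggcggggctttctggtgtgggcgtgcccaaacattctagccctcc
Lig1, chr7:13276925-13277174, plus strand: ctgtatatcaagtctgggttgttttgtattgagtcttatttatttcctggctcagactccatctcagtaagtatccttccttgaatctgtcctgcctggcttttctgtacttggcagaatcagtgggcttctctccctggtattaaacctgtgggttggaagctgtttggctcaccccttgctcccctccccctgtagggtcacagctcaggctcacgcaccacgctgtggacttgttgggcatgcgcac
Cdk1, chr10:69352913-69353162, minus strand: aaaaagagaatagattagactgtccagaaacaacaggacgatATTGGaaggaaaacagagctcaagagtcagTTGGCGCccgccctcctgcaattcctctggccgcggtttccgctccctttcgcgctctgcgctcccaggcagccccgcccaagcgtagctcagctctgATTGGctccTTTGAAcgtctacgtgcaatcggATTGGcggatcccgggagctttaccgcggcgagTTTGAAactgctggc
Top2a, chr11:99024190-99024439, minus strand: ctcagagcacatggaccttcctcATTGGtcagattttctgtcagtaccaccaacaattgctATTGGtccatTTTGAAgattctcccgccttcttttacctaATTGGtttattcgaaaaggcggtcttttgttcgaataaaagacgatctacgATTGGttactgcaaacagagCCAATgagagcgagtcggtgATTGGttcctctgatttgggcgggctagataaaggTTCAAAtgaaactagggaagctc
Ccnb2, chr9:70421555-70421804, minus strand: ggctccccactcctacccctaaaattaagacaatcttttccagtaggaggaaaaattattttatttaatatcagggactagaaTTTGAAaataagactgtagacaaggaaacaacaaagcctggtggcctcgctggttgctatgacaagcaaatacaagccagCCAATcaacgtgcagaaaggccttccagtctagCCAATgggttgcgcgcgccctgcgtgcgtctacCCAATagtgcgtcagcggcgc

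Mcm3 carries 3 E2F cores, all in the 50 bases after the start and so not shown, and 3 CCAAT boxes before it. Mcm2 holds 1 CHR and 1 CCAAT box. Cdk1 combines 1 E2F core, 2 CHR words and 3 CCAAT boxes. Top2a holds 2 CHR words and 6 CCAAT boxes, and Ccnb2 holds 2 CHR words, 1 of them after the start, and 3 CCAAT boxes. Lig1 holds none of these words in the window, which was that of the most upstream of its 3 annotated starts.

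Across the 35 genes with an entry, the words differed in frequency between replication and mitosis genes. In windows of 300 bases (250 before and 50 after the start), an E2F core stood in 9 of 17 replication promoters (52.9%) and 2 of 13 mitosis promoters (15.4%), against 6.96% of 27025 promoters in the table. A CHR stood in 11 of 13 mitosis promoters (84.6%) and 5 of 17 replication promoters (29.4%), against 27.9% of all. CHR and CCAAT box occurred together in 10 of 13 mitosis promoters (76.9%) and 3 of 17 replication promoters (17.6%), against 10.95% of all. Of the 5 Mcm2 to Mcm7 promoters in the table, 4 held an E2F core and 5 a CCAAT box. Words that overlap were each counted, and the counts describe letters in a window, not binding.

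The subunits of the replicative helicase mostly had positive differences. Mcm2 to Mcm7 encode the 6 subunits of the ring that unwinds DNA, and 5 of the 6 had positive values between 0.32 and 0.43. Mcm2 read 5.71, 6.05 and 5.87 (log2 intensity) in HKO livers, against 5.53, 5.47 and 5.35 in control livers, a log2 difference of 0.43 ± 0.10 (SE; 1.35-fold, adjusted p = 0.126). Mcm3 read 4.82, 5.08 and 4.95 in HKO livers, against 4.47, 4.65 and 4.52 in control livers (0.41 ± 0.09, adjusted p = 0.105). Mcm4 read 5.44, 5.64 and 5.52 in HKO livers, against 5.33, 5.17 and 4.98 in control livers (0.37 ± 0.11, adjusted p = 0.191). In all 3 genes every HKO array lay above every control array, and HKO 2 was the highest. With the median level of a gene's probe sets on each array, Mcm3 stood at 0.15 (limma adjusted p = 0.605). By that level Mcm2 stood at 0.44 (0.261) and Mcm4 at 0.47 (0.232).

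Mcm5 and Mcm6, given here to complete the ring and not by the rule for named genes, had overlapping groups. Mcm5 read 5.68, 6.71 and 5.89 in HKO livers, against 5.83, 5.79 and 5.70 in control livers, so that HKO 1 lay below all controls and HKO 2 far above them. Its difference of 0.32 ± 0.23 (adjusted p = 0.622) became 0.01 without HKO 2. Mcm6 read 4.62, 5.16 and 4.98 in HKO livers, against 4.82, 4.52 and 4.44 in control livers (0.33 ± 0.15, adjusted p = 0.415; 0.21 without HKO 2).

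Mcm7 ran the other way. It read 6.99, 7.04 and 6.86 in HKO livers, against 7.04, 7.16 and 7.11 in control livers, a difference of -0.14 ± 0.08 (limma adjusted p = 0.507). Its groups did not overlap, but HKO 2 and control 1 both rounded to 7.04. With the median level of its 4 probe sets on each array as the gene's value, the difference was 0.02.

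**Figure D2:**
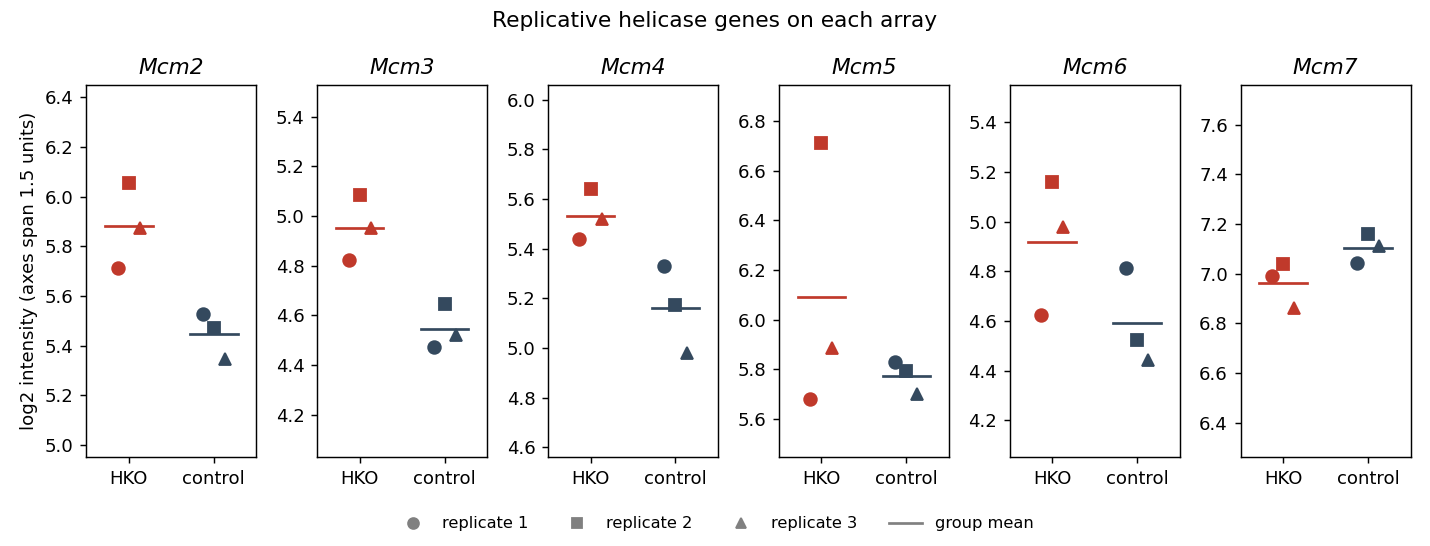
Log2 intensity of Mcm2 to Mcm7 on each array, HKO left of control, with symbols for replicate 1, 2 and 3 and a line at each group mean; every axis spans 1.5 log2 units. HKO and control do not overlap for Mcm2, Mcm3, Mcm4 and Mcm7, and HKO 2 is the highest HKO array in all 6 genes.

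Of 4 other origin factors, 3 had positive values. Cdt1, which loads the helicase with Cdc6, read 5.21, 5.54 and 5.55 in HKO livers, against 5.17, 5.21 and 5.13 in control livers (0.26 ± 0.10, adjusted p = 0.34). HKO 1 did not exceed the highest control, and with the median level of its 3 probe sets on each array the difference was -0.03. Cdc6 stood at 0.14, Gins2, a subunit of the GINS complex of the active helicase, at 0.13, and Mcm10, a factor of helicase activation, at -0.27 ± 0.21 (adjusted p = 0.644).

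Fork enzymes split in sign by their brightest probe sets. Lig1, the ligase that seals Okazaki fragments, read 4.79, 5.06 and 5.17 in HKO livers, against 4.31, 4.66 and 4.58 in control livers. That is 0.49 ± 0.13 (1.40-fold, adjusted p = 0.16), with no overlap between the groups. Rfc4, a subunit of the clamp loader, read 4.74, 5.09 and 4.89 in HKO livers, against 4.56, 4.55 and 4.73 in control livers (0.29 ± 0.10, adjusted p = 0.29), again with no overlap. The other probe set of Rfc4 stood at 0.04 ± 0.10, with overlap. The sliding clamp Pcna stood at -0.04 ± 0.08, with an interval between -0.22 and 0.15. Negative values were also found for the flap nuclease Fen1 (-0.27 ± 0.13), the catalytic subunit of DNA polymerase alpha Pola1 (-0.23 ± 0.11) and that of polymerase epsilon, Pole (-0.12 ± 0.14), with adjusted p between 0.424 and 0.765.

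Enzymes of nucleotide supply had 1 positive and 3 negative values. Rrm2, the regulated subunit of ribonucleotide reductase, stood at -0.34 ± 0.16, thymidine kinase Tk1 at -0.31 ± 0.15 and thymidylate synthase Tyms at -0.04 ± 0.08. Rrm1, the large reductase subunit, stood at 0.12 ± 0.09. Their adjusted p lay between 0.424 and 0.899 (limma).

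Genes of G1 and of entry into S phase held nothing below an unadjusted p of 0.05. Ccne2, a cyclin E, read 2.93, 3.19 and 2.48 in HKO livers, against 2.40, 2.65 and 2.44 in control livers (0.37 ± 0.17, adjusted p = 0.412). HKO 3 lay among the controls. E2f8, an atypical E2F that represses E2F targets and acts in hepatocyte polyploidy in mice, read 4.46, 4.05 and 4.57 in HKO livers, against 4.40, 4.61 and 5.24 in control livers. Its difference was -0.39 ± 0.22 (adjusted p = 0.511), and -0.14 without control 3. Cdk2 read 5.18, 5.10 and 4.96 in HKO livers, against 4.94, 4.90 and 5.04 in control livers (0.12 ± 0.08, adjusted p = 0.607), with overlap. Cyclin D1 (Ccnd1), the cyclin that growth signals induce in hepatocytes, stood at 0.13 ± 0.14, E2f1 at 0.07 ± 0.09, Ccne1 at 0.00 ± 0.12 and Cdk4 at -0.01 ± 0.09.

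Among mitosis genes the kinase Cdk1 and its partners had values near 0.3. Cdk1, the kinase that starts mitosis, read 5.18, 5.25 and 5.37 in HKO livers, against 5.12, 4.84 and 4.97 in control livers (0.29 ± 0.10, adjusted p = 0.253). Ccnb2, a cyclin B, read 3.02, 3.39 and 3.32 in HKO livers, against 2.83, 3.08 and 2.91 in control livers (0.30 ± 0.12, adjusted p = 0.319). Cdc25c, a phosphatase that activates Cdk1, read 2.65, 2.95 and 2.72 in HKO livers, against 2.51, 2.60 and 2.29 in control livers (0.31 ± 0.11, adjusted p = 0.295). The groups did not overlap for Cdk1 and Cdc25c, and for Ccnb2 HKO 1 lay below control 2. Cyclin A2 (Ccna2) stood at 0.26 ± 0.17, with HKO 1 below all controls.

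Genes of chromosome structure gave wide intervals. Top2a, the topoisomerase that untangles chromosomes, read 4.01, 4.47 and 4.38 in HKO livers, against 4.15, 3.48 and 3.36 in control livers. Its difference of 0.62 ± 0.21 (1.54-fold, adjusted p = 0.262) was the largest of the 44, and control 1 lay above HKO 1. Mki67, which encodes the proliferation antigen Ki-67, stood at 0.27 ± 0.16 (adjusted p = 0.536), with an interval between -0.10 and 0.65. Birc5, the survivin subunit of the chromosomal passenger complex, read 2.49, 2.97 and 2.67 in HKO livers, against 2.52, 2.24 and 2.39 in control livers (0.33 ± 0.13, adjusted p = 0.349), with HKO 1 below control 1.

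The remaining spindle and checkpoint genes stayed within 0.16 of 0 by their brightest probe sets. Other probe sets of these genes ran between -0.22 (Kif11) and 0.27 (Bub1b). Cdc20, an activator of the anaphase-promoting complex, stood at 0.15, the Aurora kinases Aurkb and Aurka at 0.07 and -0.05, the spindle motor Kif11 at 0.05, Plk1 at 0.03 and the checkpoint kinase gene Bub1b at 0.02. Bub1 stood at 0.00, the spindle protein Nusap1 at -0.02, the transcription factor Foxm1 at -0.05 and the centromeric histone Cenpa at -0.08. Their adjusted p lay between 0.543 and 0.993. Of the 17 mitosis genes 16 had a mean below the median gene (4.69 log2), against 5 of 20 replication genes. Bub1, Aurkb, Cdc6 and Tyms were far below it, with group means between 1.64 and 1.83, where the lowest value of all probe sets was 0.50. Top2a, Ccnb2, Cdc25c and Birc5, higher at an unadjusted p under 0.05 (limma), also lay below that median, with group means between 2.38 and 4.28. Whether any of these transcripts was detected was not tested. The small differences of Bub1, Aurkb, Cdc6 and Tyms therefore do not show that they were unchanged.

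Probe sets of the same gene often disagreed. The 44 genes have 100 probe sets, and 33 genes have several; in 15 of these the signs were alike and in 18 they were mixed. Of the 100, 66 were positive, where 49.1% of all 34325 single-gene probe sets were. In the helicase ring, all 15 probe sets of Mcm2 to Mcm6 were positive, between 0.03 and 0.56, and Mcm7 had 2 positive and 2 negative; the split between Mcm7 and the others follows their values. Probe sets of a gene read the same RNA and are not replicates. Fen1 stood at -0.27 by its brightest probe set, of a class (x_at) that can bind other transcripts, and at 0.46 by its other one. That other Fen1 probe set had an SE of 0.11 (limma unadjusted p = 0.0027, adjusted p = 0.145), and its groups did not overlap. For Rrm2 the brightest, also x_at, stood at -0.34 and the others at 0.06 and 0.22. Top2a stood at 0.62 by its brightest and at -0.02 and -0.12 by its others. Cdc25c stood at 0.31 by its brightest, also x_at, and at -0.11 by its other one. Tested one by one over all probe sets, 0 of the 100 passed (lowest adjusted p = 0.13, limma), where 0.720% of all probe sets did. At an unadjusted p under 0.05, 16 were higher and 0 lower, where 5.66% of all probe sets were higher and 6.33% lower.

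**Figure D3:**
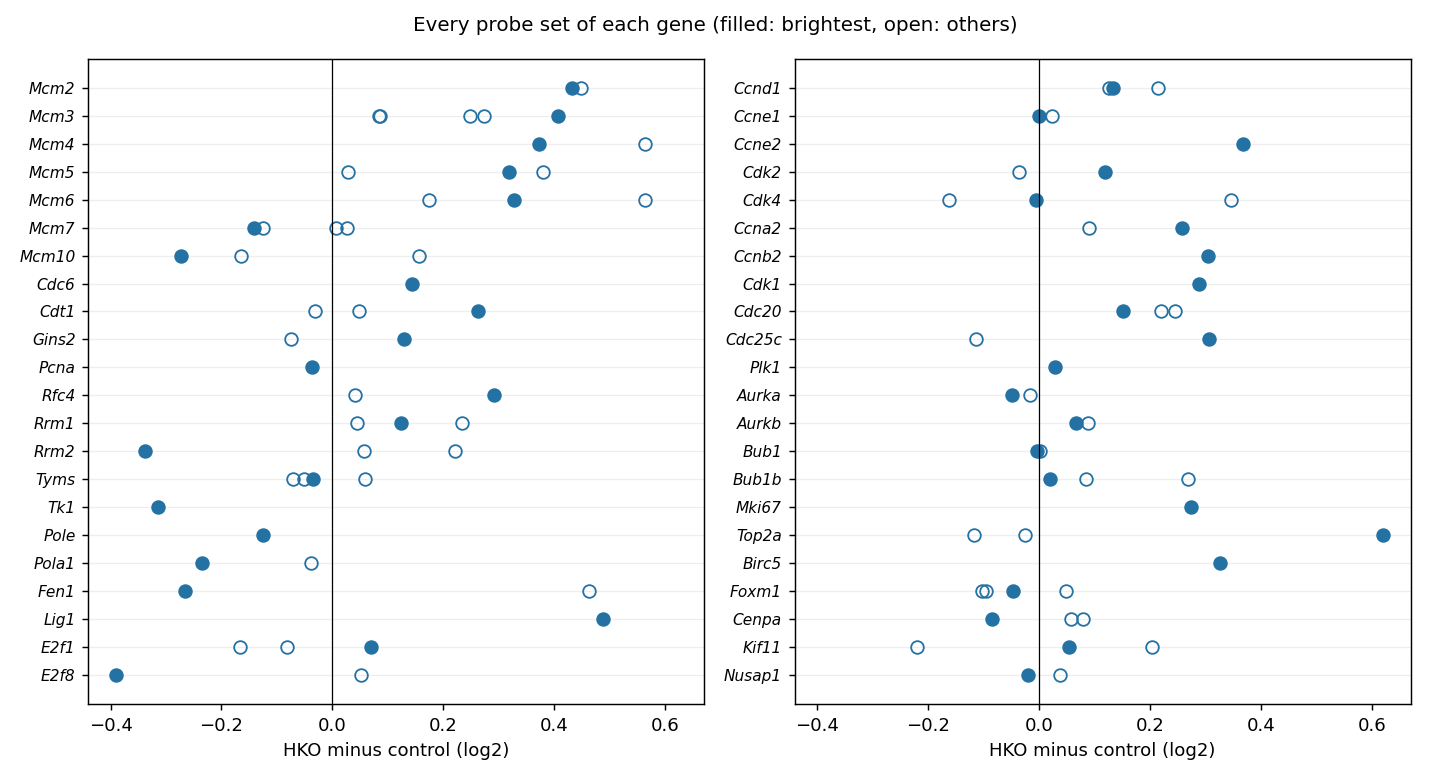
Log2 difference (HKO minus control) of all 100 probe sets of the 44 genes, 1 line per gene, with the brightest probe set filled and the others open. All points of Mcm2 to Mcm6 lie right of 0, and those of Fen1, Rrm2 and Top2a fall on both sides.

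The 3 HKO livers differed among themselves. Averaged over the 20 replication genes, the deviation from the control mean was -0.02, 0.21 and 0.04 in HKO 1, 2 and 3, against -0.02, 0.02 and 0.00 in control 1, 2 and 3 (SD 0.12 in HKO livers and 0.02 in control livers). For the 17 mitosis genes it was 0.00, 0.20 and 0.23 in HKO livers, against 0.08, -0.03 and -0.05 in control livers. HKO 1 was at the low end of the controls for replication and within them for mitosis. It was the lowest HKO array in 29 of the 44 genes, and HKO 2 was the highest in 23, whereas over all genes HKO 1 was lowest in 34.7% and HKO 2 highest in 32.8%. Without HKO 2 the median of the replication genes was 0.01, and 4 of the 6 replication genes named above kept an unadjusted p under 0.05 (Mcm2, Mcm3, Mcm4 and Lig1), as did Cdk1. In that fit Tk1 and the brightest probe set of Fen1 were lower at an unadjusted p under 0.05. The other probe set of Fen1 stood at 0.46 with all 6 arrays.

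Markers of other cells were read on the same arrays, since cycling macrophages or blood cells would carry the same transcripts. Macrophage markers (9 measured, 0 past the test) averaged 0.07, 0.45 and -0.08 from the control mean in HKO 1, 2 and 3, against 0.36, -0.23 and -0.13 in control 1, 2 and 3. Much of the value of HKO 2 came from 1 gene, Marco, a scavenger receptor chosen here after its values were seen. Marco read 5.98, 8.11 and 5.07 in HKO livers, against 6.34, 4.94 and 4.79 in control livers (1.03 ± 0.72, limma adjusted p = 0.607). Over the 8 other markers the average was 0.00, 0.16 and -0.05 in HKO livers, against 0.29, -0.21 and -0.08 in control livers, with control 1 the highest. HKO 2 was still the highest HKO array in that average. It was the highest HKO array for 4 of the 8 markers and the lowest for 2. The mean log2 level of the list ran between 7.19 and 7.71 in HKO livers and between 7.03 and 7.62 in control livers, with Ccr2 at -0.36 (adjusted p = 0.188) and Cd5l at 0.25 (adjusted p = 0.559). Erythroid markers (7 measured, 0 past the test) ran between 4.81 and 4.94 in HKO livers and between 4.63 and 4.87 in control livers, with the transferrin receptor Tfrc at 0.71 ± 0.18 (adjusted p = 0.16) and Epor at 0.14 (adjusted p = 0.479). These had the lowest p of that list, in which 4 values were positive and 3 negative, with a median of 0.01. The part of either in the replication values was not tested.

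No marker of hepatocytes (8 measured), lymphocytes (8), neutrophils (7), endothelium (8) or stellate cells (8) passed. The lowest p in each belonged to Hnf4a (-0.28, adjusted p = 0.37) and Ass1 (0.48, 0.439), Cd4 (-0.20, 0.469) and Cd3e (0.14, 0.588), S100a9 (-0.66, 0.563) and S100a8 (-0.79, 0.607), Clec4g (-0.19, 0.479) and Lyve1 (0.44, 0.543), and Des (0.16, 0.486) and Col1a1 (0.18, 0.493). Without control 1, S100a9 stood at -0.11 and S100a8 at -0.10. Of the 8 stellate markers 4 were positive and 4 negative, with a median of -0.02. Stellate markers were highest in HKO 3, at 0.35 from the control mean. Of 6 cholangiocyte markers Krt23, a keratin, rose by 1.07 ± 0.19 (limma adjusted p = 0.049), though in only 2 of the 6 fits without 1 array, and Sox9 stood at -0.66 (0.171). Krt23 was the 1 positive value of that list, 5 were negative and the median was -0.20. On average hepatocyte markers were bright on all arrays, between 11.29 and 11.61 in HKO livers and between 11.37 and 11.53 in control livers (mean log2 level of the list). Ass1 was dimmer than that average, between 6.35 and 7.40.

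**Figure D4:**
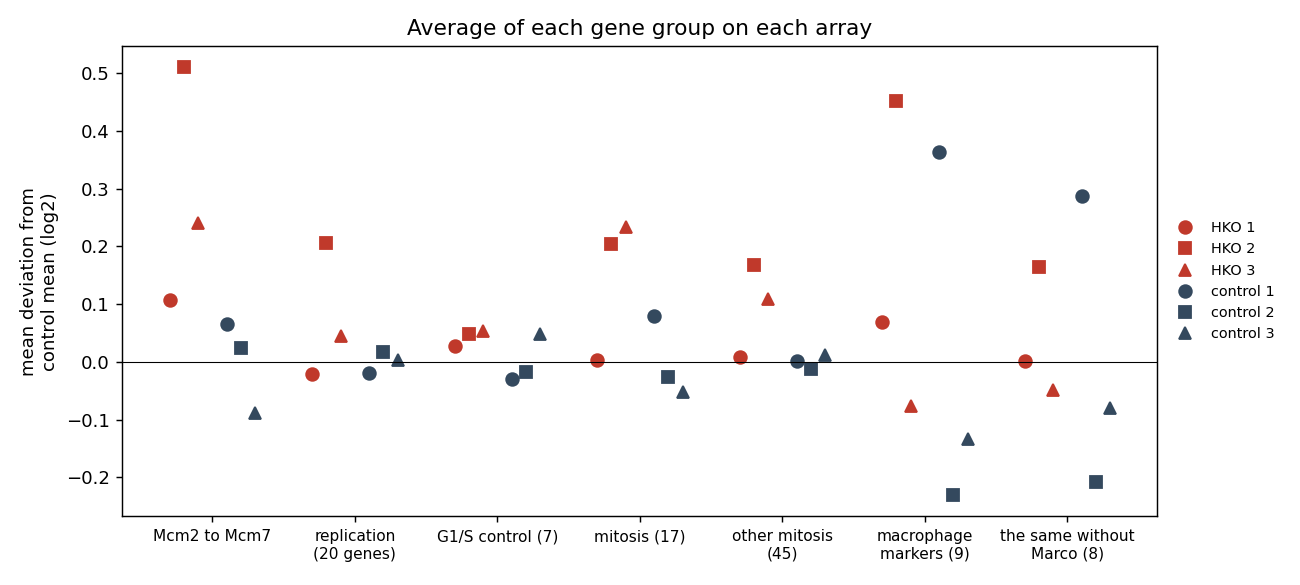
Mean deviation from the control mean (log2) over the genes of each group on each array, HKO points left of control points. HKO 2 is highest for Mcm2 to Mcm7 (0.51). Its macrophage value of 0.45 is 0.16 without Marco, still the highest HKO value but below control 1 (0.29). HKO 1 lies near 0 for replication and mitosis genes.

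Further genes of the pathway gave 2 calls. Of 36 other replication genes 0 passed, 21 had positive values (58.3%, against 48.8% of all genes) and the median was 0.03. The lowest p there were those of Wdhd1, a replisome adaptor, at 0.28 (limma adjusted p = 0.252), Dbf4, the activator of the Cdc7 kinase, at 0.22 (0.316) and the primase subunit Prim2 at -0.22 (0.326). Of 45 other mitosis genes, 1 rose and 1 fell, where 0.560% of all genes rose and 0.449% fell. Positive values were found for 30 of the 45 (66.7%, against 48.8% of all genes). At an unadjusted p under 0.05 (limma) 11 of the 45 were higher and 1 lower, where 6.03% of all genes were higher and 6.96% lower. The median of these 45 genes, 0.10, was 0.17 without HKO 1, 0.06 without HKO 2 and 0.07 without HKO 3. It was 0.05 by the median level of the probe sets and 0.02 without dimmer genes. Cyclin F (Ccnf), part of a ubiquitin ligase that degrades ribonucleotide reductase Rrm2 among others, read 5.32, 5.59 and 5.36 in HKO livers, against 5.94, 6.11 and 6.00 in control livers, and fell by 0.59 (SE 0.10, adjusted p = 0.0336). Its other probe set stood at -0.22.

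Spc25, a subunit of the kinetochore's Ndc80 complex, read 6.31, 6.40 and 6.49 in HKO livers, against 5.74, 5.76 and 6.01 in control livers, and rose by 0.56 ± 0.10 (limma adjusted p = 0.041). Its other probe set stood at -0.05. Its partner in that complex, Spc24, stood at 0.35 ± 0.09 (0.143), with HKO livers at 6.41, 6.33 and 6.47 and control livers at 5.93, 6.16 and 6.09. Ccnf and Spc25 each passed in only 1 of the 6 fits without 1 array, with adjusted p up to 0.133 and 0.159.

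Inhibitors and drivers of the cycle gave 1 call, where 1.01% of all genes were called. Of 22 inhibitors, pocket proteins, repressors and MuvB subunits 0 passed and the median was -0.06. MuvB also serves the activation of mitosis genes, so this list does not hold inhibitors alone. Its lowest p were those of the antiproliferative gene Tob1 at 0.56 ± 0.11 (limma adjusted p = 0.0692), Lin54, a DNA-binding subunit of MuvB, at 0.47 (0.177) and the Cdk inhibitor Cdkn1c at 0.24 (0.279). Of 16 drivers of G1, Jun, an AP-1 subunit and early gene of liver regeneration, rose by 1.33 ± 0.11 (0.00163), and 15 did not pass. The growth factor receptor Egfr stood at -1.37 ± 0.29 (0.0807), reading 8.93, 8.92 and 7.82 in HKO livers, against 9.68, 9.93 and 10.2 in control livers, and E2f3 stood at 0.36 ± 0.09 (0.132).

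The targeted gene Tmbim1 read 7.19, 7.14 and 7.06 in HKO livers, against 7.62, 7.58 and 7.74 in control livers, and fell by 0.52 (SE 0.08, limma adjusted p = 0.026). The adjusted p lay between 0.065 and 0.0967 in the 6 fits without 1 array and was 0.0828 with the replicate number as a block. Array medians lay between 3.92 and 3.95 (log2). With 3 arrays a genotype the precision is limited, and the median half-width of the 95% interval over the 44 genes was 0.25.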

How the data were processed

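The deposited log2 intensities (38208 probe sets, 6 arrays) came from RMA run by the authors. RMA and limma are named, without version, by the submitters' processing notes. RMA gives all arrays a common distribution and shrinks differences of dim probe sets. Gene symbols came from the platform's annotation: 34325 have 1 gene symbol, 62 several, 3808 are unnamed here, and 13 Affymetrix controls were left out. Symbols were checked by gene identifier (34131 matched, 0 changed), and the brightest probe set by the mean of all 6 arrays stood for each of 18029 genes. The test was that of limma 3.58.1 under R 4.3.3 (lmFit, eBayes, two-sided, HKO minus control, 3 against 3 arrays, genotype as the only term), adjusted by Benjamini-Hochberg over all genes at 0.05. Steps were tested on simulated data. The labels call them biological samples, and p-values measure the spread between these livers.

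The members and lists were chosen with earlier results of these data known. Values of every array are given for genes with an unadjusted p under 0.05 or groups that do not overlap and for the 3 lowest p among G1/S and mitosis genes; other lists are named by their 3 lowest p and marker lists by 2. Ccnf, Spc25, Jun, Spc24 and Egfr array values, Mcm5, Mcm6 and Marco were added after values were seen. Alternatives were array weights, trend and robust settings of eBayes, quantile normalization, centring, the brighter genes alone, other choices of probe set, a block by replicate number, other thresholds, and each array left out in turn. Promoter words were searched in the table's windows on both strands, 1 start per gene, with 35 of 44 genes matched.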

Additional observations from a re-analysis of the deposited data

How the results depend on the processing

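No member passed the adjusted threshold under any of the alternatives run on the fit (lowest adjusted p 0.0621), and at an unadjusted p under 0.01, 4 did. Genes called over all genes were 182, 344 at an adjusted p under 0.1, 839 at an unadjusted p under 0.01, and between 78 and 161 without 1 array. The count of members higher at an unadjusted p under 0.05, added after the data were seen, was 11, but 7 with the dimmer genes left out (19 members remained), 6 with the median level of a gene's probe sets on each array as its value, and 5 to 15 without 1 array. The replication median was 0.13, 0.26 without dimmer genes, and 0.012 to 0.18 without 1 array. The G1/S median was 0.07, 0.12 without dimmer genes, 0.012 by that median level, and 0.037 to 0.098 without 1 array. The mitosis median was 0.07, 0.29 without dimmer genes, where Cdk1 alone was left, and 0.05 to 0.11 without 1 array. Tmbim1 ranged between -0.55 and -0.47 without 1 array.

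The replicate number was no pairing stated by the labels, and deviations of same-numbered arrays correlated at -0.094, 0.069 and 0.112 across genes. With it as a replicate block 125 genes and 0 members were called, 11 members were higher and 3 lower at an unadjusted p under 0.05, and Tmbim1 stayed at -0.52 with an adjusted p of 0.0828.

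Signs turned in 35 of 591 refitted member values, and 26 of 44 members kept theirs throughout. By the median level of the probe sets Mcm7 stood at 0.016, Cdt1 at -0.032, Rrm2 at 0.057, Fen1 at 0.10, E2f1 at -0.17, Top2a at -0.085, Cenpa at 0.058, Kif11 at -0.22 and Nusap1 at 0.0092. Cdk4 stood at 0.0070 under quantile normalization and 0.0017 with array weights, with which Aurka stood at 0.0032 and Bub1b at -2.4e-05. Ccne1 stood at -8.6e-05 after centring. Without 1 array the ranges crossing 0 were those of Pcna (-0.089 to 0.013), Tyms (-0.11 to 0.011), Ccne1 (-0.074 to 0.13), Cdk4 (-0.082 to 0.041), Plk1 (-0.054 to 0.10), Aurka (-0.24 to 0.11), Aurkb (-0.11 to 0.22), Bub1 (-0.042 to 0.039), Bub1b (-0.079 to 0.11), Cenpa (-0.17 to 0.0065), Kif11 (-0.049 to 0.12) and Nusap1 (-0.073 to 0.078). Apart from the change of probe set values, the cause was not tested.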
